A study of Mus musculus with 2 samples.

Results

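The genes described here are Runx1, Runx2 and Runx3, which encode the 3 RUNX transcription factors of the mouse, and Cbfb, which encodes their common partner, 4 of 21728 protein-coding genes annotated on the autosomes and the X chromosome. They were chosen by name, and each was read over its annotated gene body with 50 kb either side. Open chromatin had been mapped with DNase-seq (accessible DNA is cut by DNase I and the cut ends are read) in whole ovaries of aged B6CASTF1/J females, the F1 hybrids of C57BL/6 and CAST, 18 to 20 months of age and obtained from The Jackson Laboratory. There was 1 group with 2 libraries, called biological replicates 1 and 2, with separate biosample entries under 1 donor entry, and neither a younger age nor another tissue or treatment to set them against. The labels do not tell whether 1 animal or several gave the tissue, so differences between the libraries may be technical. With 2 libraries of 1 group no test was made, and every value is a description of these libraries.

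A RUNX protein binds DNA through its Runt domain and does so more tightly as a heterodimer with CBFβ, which does not itself contact DNA. Each Runx gene has a distal promoter, P1, and a proximal promoter, P2, whose transcripts begin at different start codons and so encode proteins with different amino termini. RUNX1 is best known from blood stem cells, RUNX2 from bone-forming cells and RUNX3 from T cells and sensory neurons. In the ovary, Runx1 is expressed in granulosa cells of the fetal mouse gonad, and Runx1 and Runx2 are induced in granulosa cells of rodents before ovulation.

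The P1 promoters are shown first, because the same letters recur in all 3. The RUNX consensus was searched as TGTGGT or TGCGGT on either strand, and the match is in capitals. The 3 stretches of 30 bases are written 5′ to 3′ along the transcribed strand, from assembly GRCm38 (mm10).
Runx1 P1, chr16:92826025-92826054, minus strand: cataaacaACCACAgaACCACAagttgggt
Runx2 P1, chr17:44814583-44814612, minus strand: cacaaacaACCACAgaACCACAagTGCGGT
Runx3 P1, chr4:135120503-135120532, plus strand: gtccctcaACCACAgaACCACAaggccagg
Each holds 2 copies of ACCACA, the complement of TGTGGT, spaced by 2 bases, and Runx2 has a further match in the other orientation right after them. The longest run common to the 3 stretches has 18 bases, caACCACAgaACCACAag, and it occurs 3 times in the autosomes and X of the reference, counting both strands. This pair was singled out after the sequences had been seen. In the RefSeq table of promoters (250 bases before to 50 after a start, GRCm38.p6), 7362 of 32851 promoters (22.4%) hold at least 1 RUNX match, while 9 (0.0274%) hold the pair with this spacing. Those 9 are Runx1, Runx2, Runx3, Gm16225, whose start lies beside that of Runx3, and Gm12236, Gm15462, Mid2, Olfr24 and Rab10os.

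Bases at the strongest peaks of the most open promoters are shown next, because the stretches printed carry none of these letters. For Runx1 P2 only the part before the annotated start is printed. Capitals mark bases inside footprints of both libraries. The open bases of Runx1 P2 after that start hold a further footprint of both libraries, chr16:92697308-92697317 in replicate 1. A footprint is a short stretch within open DNA that is cut less than its surroundings.
Runx1 P2, chr16:92697329-92697560, minus strand: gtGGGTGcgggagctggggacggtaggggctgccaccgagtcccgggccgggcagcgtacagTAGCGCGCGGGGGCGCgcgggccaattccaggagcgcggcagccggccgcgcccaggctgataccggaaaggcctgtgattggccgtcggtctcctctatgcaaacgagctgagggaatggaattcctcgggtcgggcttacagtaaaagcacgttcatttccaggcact
Cbfb promoter, chr8:105170421-105170660, plus strand: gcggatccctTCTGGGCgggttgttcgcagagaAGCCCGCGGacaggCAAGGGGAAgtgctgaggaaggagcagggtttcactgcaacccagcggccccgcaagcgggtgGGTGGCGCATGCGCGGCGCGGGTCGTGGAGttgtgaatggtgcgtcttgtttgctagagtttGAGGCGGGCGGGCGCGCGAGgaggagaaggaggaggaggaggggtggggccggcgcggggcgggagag
The 300-base promoters of Runx1 P2, Runx2 P2, Runx3 P2 and Cbfb hold 0 RUNX matches, against 2 in the Runx1 P1 promoter, 4 in that of Runx2 and 2 in that of Runx3. Outside that window, a weaker region of Runx1 P2 with a peak in both libraries, chr16:92696641-92696980, held 2 RUNX matches. A footprint of replicate 1 alone, chr16:92696878-92696885, touched 1 of them. All 4 genes matched the RefSeq table by symbol, and the bases of Runx2 P2 were read from the genome at the GENCODE start. A match is a description of letters and not evidence of a bound site, and its absence says only that the letters are not in that window.

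Signal is the value that the authors gave each peak, in whole multiples of 1 step per library. A scaling of the signal for depth is inferred from these steps. The step was 0.0108 in replicate 1, which is 1.38 times the step of 0.00782 in replicate 2, and the absolute depth is unknown. Over the whole genome the longer peak lists had 95860 peaks in replicate 1 and 83934 in replicate 2, with median signals of 0.807 and 0.797. Merged, they gave 112418 regions, of which 64875 (57.7%) had a peak in both libraries. The tissue label was checked against marker genes by whether a promoter peak lay within 500 bp of an annotated start in both libraries. This held for 6 of 7 granulosa markers, 4 of 4 theca and steroidogenic markers, 4 of 4 stromal markers and 3 of 4 epithelial markers. It held for 2 of 4 endothelial markers, for Lck alone of 6 leukocyte markers, and for 0 of 4 oocyte markers. Of all protein-coding genes 62.3% met the same criterion, and the marker lists are short. Some marker peaks were weak. Those of the stromal marker Dcn (0.431 and 0.555) and the epithelial marker Epcam (0.721 and 0.688) lay below the median signals above. In whole tissue, a site open in few cells and a site that is weakly open in many cannot be told apart.

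All 4 genes had a peak in both libraries at a coding promoter, where 62.3% of all protein-coding genes had a promoter peak in both libraries. Cbfb was the most open of them. Its strongest promoter peak had a signal of 8.68 in replicate 1 and 13.4 in replicate 2, at percentiles 98.2 and 98.8 of the peaks of each library. The mean was 11.0 ± 3.35 (SD, n = 2). Both libraries placed it just before the annotated start at chr8:105170674, and all 240 bases of the merged region had a false discovery rate below 0.001 in both, a value the authors gave to the rate of cutting at each base. In the Cbfb promoter sequence above, the broadest footprint, 30 bases wide in replicate 1 and 33 in replicate 2, contains GCGCATGCGC at chr8:105170535-105170544. It is the longest palindrome among the capitals, and its letters are those recognised by NRF1, a regulator of housekeeping and mitochondrial genes. They were searched for only after the footprint had been seen, and 319 of 32851 RefSeq promoters (0.971%) hold them.

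**Figure D1:**
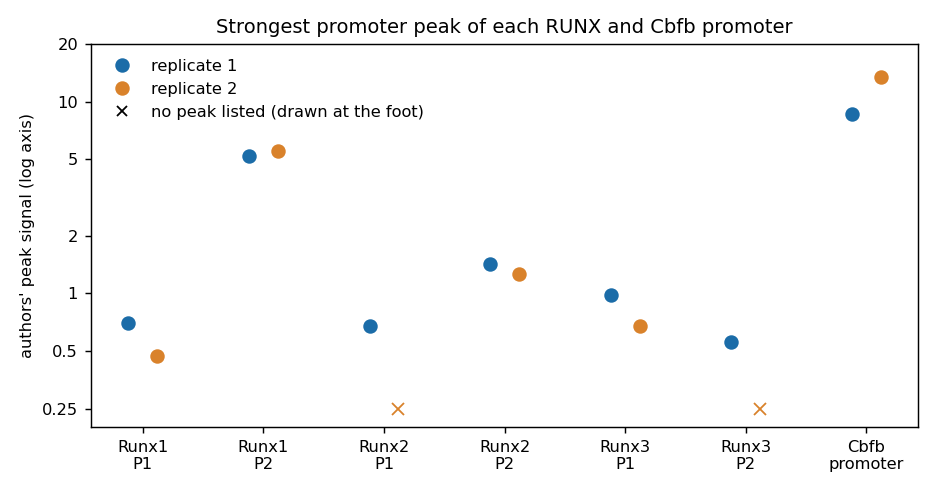
Signal of the strongest peak within 500 bp of the starts of each promoter (log axis) in replicate 1 (blue) and replicate 2 (orange). Crosses at the foot mark a library with no peak. Cbfb lies highest at 8.68 and 13.4, Runx1 P2 follows at 5.21 and 5.54, and the P1 promoters lie below 1.

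Runx1 was open chiefly at its proximal promoter. P1, with its first annotated start at chr16:92826149, had signals of 0.700 in replicate 1 and 0.469 in replicate 2, averaging 0.584 ± 0.163 (SD, n = 2). P2, which starts 128.8 kb further on at chr16:92697328, had 5.21 and 5.54, a mean of 5.38 ± 0.234 (SD, n = 2). P1 thus reached 0.134 of the signal of P2 in replicate 1 and 0.0846 in replicate 2, a gap far wider than the spread between the libraries. No base of the P1 region had a false discovery rate below 0.001 in either library, while all 280 bases of the P2 region did in both. Within 500 bp of its starts P1 had 1 footprint in replicate 1 and 2 in replicate 2, against 8 and 10 at P2. More bases were searched at P2, whose starts run to chr16:92696125, than at P1, whose starts run to chr16:92825778.

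Runx2, whose product drives osteoblast differentiation, showed the same order at lower levels. P1, at chr17:44814797, had a weak peak, 0.678, in replicate 1 but none in the other library. P2, 78.1 kb further on at chr17:44736648, had 1.42 and 1.27, a mean of 1.34 ± 0.109 (SD, n = 2), or percentiles 72.1 and 69.3. The ratio of P1 to P2 was 0.477 in replicate 1. Footprints within 500 bp numbered 1 and 0 at P1, against 9 and 8 at P2, again over more bases at P2, whose starts are spread wider. The starts of the antisense transcript Runx2os1 lie in the same peaks as P2, and DNase signal carries no strand, so their promoters cannot be told apart.

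Runx3 had the opposite order. P1, at chr4:135120652, had 0.980 in replicate 1 and 0.672 in replicate 2, averaging 0.826 ± 0.217 (SD, n = 2). P2, 31.8 kb further on at chr4:135152496, had 0.560 in replicate 1 and no peak in replicate 2. The ratio of P1 to P2 was 1.75 in replicate 1. The P2 peak lay 0.485 kb past the start and had no base with a false discovery rate below 0.001, whereas the P1 peak had 257 such bases in replicate 1 and 145 in replicate 2. The noncoding gene Gm16225 starts in the same region as Runx3 P1, and the 2 starts cannot be separated by peak signal either.

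Which promoter was stronger was set beside 1340 genes with coding promoters at least 5 kb apart, counting a missing peak as the lower. P2 was stronger in both libraries in Runx1 and Runx2, 2 of the 3 RUNX genes, where 20.1% of the 1340 genes had a stronger second promoter in both. P1 was stronger in both libraries in Runx3 alone of the RUNX genes, against 55.8% of the 1340. With 3 genes these counts describe the family and are not an estimate of a share.

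The promoters also differed in base composition, a feature that the choice of genes did not use. The CpG ratio, the observed over the expected frequency of CG in 1 kb around the first start, was 0.310 at Runx1 P1, 0.164 at Runx2 P1 and 0.361 at Runx3 P1. It was 0.865 at Runx1 P2, 0.909 at Runx2 P2, 0.949 at Runx3 P2 and 0.928 at Cbfb. Of the P1 promoters, those of Runx1 and Runx3 had a peak in both libraries, where 11.9% of 8615 genes with a CpG ratio below 0.4 at the 5′ end had one. Of the promoters with a CpG ratio above 0.8, those of Runx1 P2, Runx2 P2 and Cbfb had a peak in both, and Runx3 P2 did not, where 95.2% of 4461 genes with such a ratio had one. The thresholds of 0.4 and 0.8 were set after the values had been seen.

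The tandem pair shown above could be placed within these peaks. In Runx1 it began 103 bases after the first annotated start, in the first exon, and both copies lay inside the P1 peak of both libraries. In Runx2 it began 193 bases after the first start and lay in the P1 peak of replicate 1. In Runx3 the copies began at positions -141 and -133 relative to the start, inside the P1 peak of both libraries. A footprint of replicate 1 at chr4:135120519-135120537 covered all 6 bases of the second copy in Runx3, with none there in replicate 2. No footprint touched the pair in Runx1 or Runx2 in either library.

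Across its window of 324.7 kb, Runx1 had 21 peaks in replicate 1 and 24 in replicate 2, and Runx2 had 28 and 18 in 418.8 kb. Runx3 had 9 and 6 in 157.3 kb, and Cbfb 16 and 21 in 147.3 kb. Merged, these made 31 regions for Runx1, 27 for Runx2, 9 for Runx3 and 23 for Cbfb, of which 14, 16, 6 and 14 had a peak in both libraries, 50 of 90 in all. Over the whole genome 57.7% of regions were shared. Runx1 had the lowest share of the 4 genes, 45.2%, with 7 regions of replicate 1 alone and 10 of replicate 2 alone. Runx2 shared 59.3%, Runx3 66.7% and Cbfb 60.9%, near the share of all regions. The regions of Runx2 and Runx3 that were not shared, 11 and 3, all came from replicate 1. That library also had more peaks over the whole genome, 95860 against 83934, and the counts are few.

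**Figure D2:**
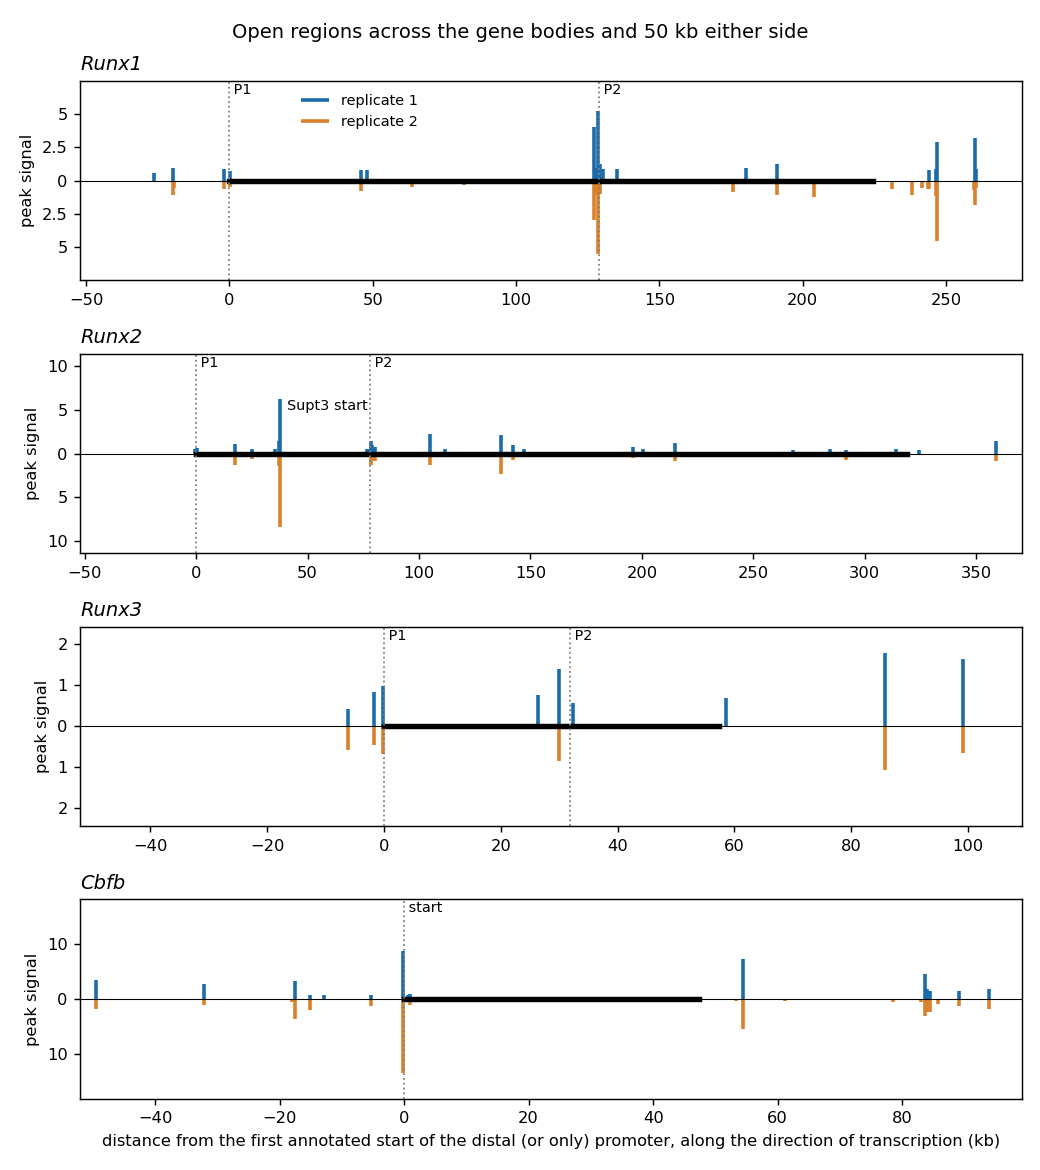
Peak signal along each gene, with replicate 1 above the line (blue) and replicate 2 below it (orange), plotted by distance in kb from the first annotated start of P1, or of the single Cbfb promoter, along transcription. The thick bar is the gene body and dotted lines mark the promoters. Runx1 signal clusters at P2 and beyond the gene's end, the tallest Runx2 peak is the Supt3 start at 6.27 and 8.46, and the Cbfb body holds little beside its promoter.

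Per 100 kb, shared regions numbered 4.31 for Runx1, 3.82 for Runx2, 3.81 for Runx3 and 9.50 for Cbfb, where the median over all genes was 4.48. Long genes have sparser regions, and among genes with windows of 0.8 to 1.25 times the same length the medians were 2.96 for Runx1, 2.43 for Runx2, 4.59 for Runx3 and 4.81 for Cbfb. In that comparison Runx1 lay at percentile 71.6, Runx2 at 76.3, Runx3 at 39.5 and Cbfb at 88.5. The genes differed in how much of this the flanks supplied. Of the shared regions 7 of 14 lay over the gene body in Runx1, 15 of 16 in Runx2, 2 of 6 in Runx3 and 2 of 14 in Cbfb.

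**Figure D3:**
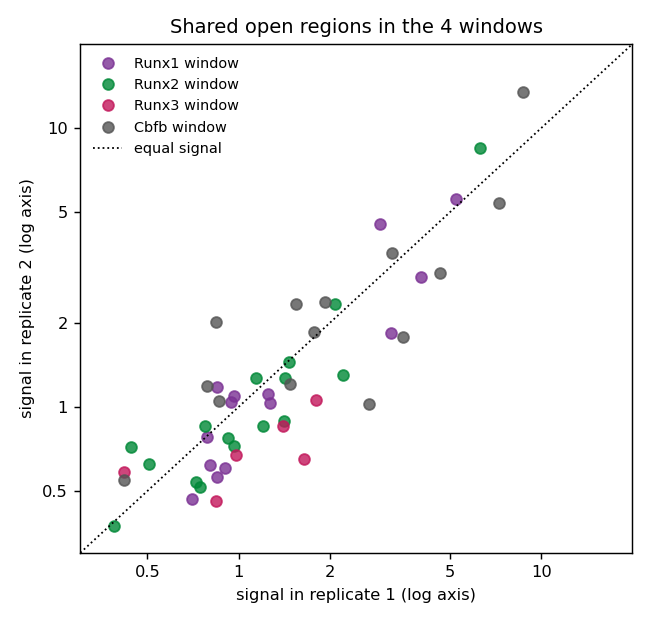
Signal of the 50 shared regions of the 4 windows in replicate 1 (horizontal) and replicate 2 (vertical), both on log axes, coloured by gene, with the dotted line at equal signal. Points follow the line with scatter to either side, and 5 of the 6 Runx3 regions lie below it.

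The log2 ratio of replicate 2 to replicate 1 at shared regions had a median of -0.24 in the Runx1 window, -0.11 in that of Runx2, -0.74 in that of Runx3 and 0.21 in that of Cbfb. Over all shared regions of the genome it was -0.03 with an SD of 0.56. The signal was lower in replicate 2 at 9 of 14 regions of Runx1, 10 of 16 of Runx2, 5 of 6 of Runx3 and 5 of 14 of Cbfb. The regions of Runx3 were thus lower in replicate 2 by more than the genome-wide median, on 6 regions.

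Outside promoters, the strongest shared regions of Runx1 lay downstream of the gene and beside P2. The region at chr16:92579081-92579340, beyond the 3′ end, had 2.94 in replicate 1 and 4.53 in replicate 2. An intronic region at -1.48 kb from the P2 start, chr16:92698701-92698920, had 4.00 and 2.92. A second downstream region, chr16:92565781-92565980, had 3.19 and 1.84. These 3 lay at percentiles 79.1 to 91.8 of the peaks of their library. The fourth region, intronic at chr16:92634947-92635103 and 62.3 kb past P2, had 1.25 and 1.11.

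The interval around a regulatory element of the blood lineage held no listed open site. Runx1 has an intronic enhancer active in emerging blood stem cells, named for its distance of 23 kb past the P1 start codon. In the interval of 3 kb either side of that distance, chr16:92799647-92805646, both libraries had 0 peaks, 0 footprints and 0 bases with a listed false discovery rate, which the files give only below 0.05. The interval was chosen after the map had been seen and was placed by distance alone. The whole Runx1 window held 31 regions in 324.7 kb, so an interval of this length can easily lack a peak. The share of such intervals without a peak was not counted, and the absence is not a result about the element. The nearest peak further along lay 45.4 kb past the start codon, with 0.786 in replicate 1 and 0.782 in replicate 2.

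In Runx2 the tallest region was not at a promoter of its own. Supt3 encodes a subunit of the SAGA coactivator complex, and its body overlaps that of Runx2 and runs past P1. Its start, between P1 and P2 of Runx2, had 6.27 in replicate 1 and 8.46 in replicate 2 at chr17:44776981-44777240. That exceeded P2 of Runx2 in both libraries. A second region at the same start had 1.46 and 1.45, and the start of the antisense gene Runx2os2 had 2.21 and 1.31. The strongest region outside any promoter was intronic, chr17:44677841-44678060, 58.7 kb past P2, with 2.08 and 2.34. The next were chr17:44797461-44797640 with 1.14 and 1.27, chr17:44455761-44455980 with 1.41 and 0.891, and chr17:44599981-44600180 with 1.21 and 0.852.

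The Runx3 window held few and weak regions, and its strongest lay downstream of the gene. The region at chr4:135206361-135206620 had 1.80 in replicate 1 and 1.06 in replicate 2, and the one at chr4:135219761-135219920, in an intron of the chloride channel gene Clic4, had 1.65 and 0.649. Within Runx3, an intronic region at -1.88 kb from the P2 start, chr4:135150521-135150720, had 1.40 and 0.852, above P2 itself. The fourth, chr4:135118921-135119120, lay upstream of P1 and had 0.840 and 0.461.

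Cbfb stood in a dense neighbourhood, but its own body held a single shared region beside its promoters, with 0.420 and 0.547. The strongest of the window outside promoters was in an exon of the glycosyltransferase gene B3gnt9, chr8:105254161-105254360, with 4.62 in replicate 1 and 3.02 in replicate 2. Upstream of Cbfb, chr8:105153101-105153340 had 3.21 and 3.55, chr8:105121061-105121260 had 3.49 and 1.78, and chr8:105138461-105138660, in an intron of the carboxylesterase gene Ces4a, had 2.70 and 1.02. Promoters of neighbours were open too. That of D230025D16Rik had 7.22 and 5.37, those of B3gnt9 1.93 and 2.38 at its stronger region, and those of Tradd and Fbxl8 at their common start 1.78 and 1.85. A further Tradd start had 1.47 and 1.21.

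Footprints in the windows numbered 132 in replicate 1 and 162 in replicate 2. Runx1 had 37 and 56, Runx2 44 and 37, Runx3 14 and 14 and Cbfb 37 and 55. Per 100 kb, the mean of both libraries was 14.3 for Runx1, 9.67 for Runx2, 8.90 for Runx3 and 31.2 for Cbfb, where the median over all genes was 13.9. Among genes with windows of similar length, as above, the medians were 7.90 for Runx1, 6.24 for Runx2, 14.3 for Runx3 and 15.2 for Cbfb, so that Runx1, Runx2 and Cbfb lay above and Runx3 below. Of the replicate 1 footprints, 15 of 37 in Runx1, 17 of 44 in Runx2, 6 of 14 in Runx3 and 24 of 37 in Cbfb overlapped one of replicate 2, against 49.9% of all footprints. Of the replicate 2 footprints, 15 of 56 in Runx1, 16 of 37 in Runx2, 9 of 14 in Runx3 and 24 of 55 in Cbfb overlapped one of replicate 1, against 45.2% of all. Runx1 (40.5% and 26.8%) and Runx2 (38.6% and 43.2%) lay below the genome-wide share in both libraries, Runx2 only slightly in replicate 2.

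The RUNX letters were searched in every footprint with 10 bp added at either end. They were in 7 of 132 member footprints (5.30%) of replicate 1, where 2.87% of all footprints held them, and in 5 of 162 (3.09%) of replicate 2, where 2.44% did. Both shares lie above those of all footprints but rest on few footprints. Of these matches, 3 recurred in or within 10 bp of a footprint of both libraries. The footprints lay at chr16:92635006-92635016 in a Runx1 intron, at chr16:92565867-92565900 downstream of Runx1 and at chr8:105121132-105121161 upstream of Cbfb. The letters touched the footprint in both libraries at the first and second, whereas the third was touched in replicate 1 only and lay beside the footprint in replicate 2.

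The first of these is shown with 10 bases either side, as the one intronic RUNX match in Runx1 under a footprint of both libraries, with its letters in capitals. Below it is a match to CAAGGTCA, the letters bound by the NR5A receptors of steroid-producing and granulosa cells, in the strongest distal region of Runx2, likewise under a footprint of both libraries.
Runx1 intron, chr16:92634996-92635026, minus strand: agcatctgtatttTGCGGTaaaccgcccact
Runx2 intron, chr17:44677873-44677908, plus strand: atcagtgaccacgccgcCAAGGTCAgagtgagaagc
The Runx2 footprint spanned chr17:44677883-44677898 in replicate 1 and chr17:44677886-44677900 in replicate 2. The NR5A letters were in 1 member footprint in each library (0.758% and 0.617%), where 0.845% and 1.05% of all footprints held them. The member shares lie below those of all footprints, on a single footprint in each library. Of RefSeq promoters, which are far longer than a footprint, 1.56% held them.

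Other consensus letters were rare in the windows on either strand. Replicate 1 had 2 footprints with the AP-1 letters TGANTCA, 0 with the GATA letters AGATAA and 1 with the TEAD letters ACATTCC, against all-footprint shares of 1.71%, 0.914% and 0.380%. Replicate 2 had 0, 3 and 1, against 1.37%, 0.914% and 0.393%. The FOX letters TGTTTAC and the ETS letters CCGGAAG were in 0 member footprints of either library, where 0.226% and 1.18% of all footprints of replicate 1 and 0.226% and 1.17% of those of replicate 2 held them. In RefSeq promoters the shares were 7.81% for AP-1, 11.2% for GATA, 3.85% for TEAD, 3.65% for FOX and 8.86% for ETS. Those promoters have 300 bases, while the median footprint had 10 before the added bases, so the 2 kinds of share cannot be compared directly.

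Wide footprints, of at least 25 bp, made up 14 of 132 (10.6%) in replicate 1, where the share of all footprints was 9.48%, and 16 of 162 (9.88%) in replicate 2, where it was 7.89%. All 14 of replicate 1 overlapped a footprint of replicate 2, and 6 of the 14 (42.9%) held AGNGGGC, the core of the sequence bound by CTCF, a protein of chromatin loop anchors, against 3861 of 15533 recurring wide footprints genome-wide (24.9%). Of the 16 of replicate 2, all of which recurred too, 4 (25%) held it, against 2985 of 15358 (19.4%). The Runx3 and Tradd sites of replicate 1 held the core in replicate 2 as well. Their footprints there, 16 and 20 bases wide, fell below the width limit, so the member share depends on that limit. The core and the width were chosen after the values had been seen. In the Runx2 window 0 of 4 wide footprints of replicate 1 and 0 of 5 of replicate 2 held the core. A longer CTCF consensus, CCANNAGNNGGC, was in 1 member footprint of replicate 1 (0.758%) and 3 of replicate 2 (1.85%). Both shares lie below the all-footprint shares of 4.09% and 2.42%, so the longer letters went the other way from the core. The 6 of replicate 1 are shown with 10 bases either side and the core in capitals, because all but the last fall in the strongest distal regions.
Runx1 downstream, chr16:92565857-92565910, plus strand: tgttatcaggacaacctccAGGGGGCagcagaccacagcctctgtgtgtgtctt
Runx1 upstream of P2, chr16:92698800-92698851, plus strand: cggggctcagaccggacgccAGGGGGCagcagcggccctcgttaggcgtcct
Runx3 downstream, chr4:135206499-135206543, minus strand: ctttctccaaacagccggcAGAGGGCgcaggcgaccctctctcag
Cbfb upstream, chr8:105121122-105121171, plus strand: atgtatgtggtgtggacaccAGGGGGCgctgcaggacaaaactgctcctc
Cbfb upstream, chr8:105138546-105138594, plus strand: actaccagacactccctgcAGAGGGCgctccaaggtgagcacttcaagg
Tradd exon, chr8:105259837-105259883, minus strand: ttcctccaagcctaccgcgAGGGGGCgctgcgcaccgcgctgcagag
The first 5 lay in distal shared regions named above, including the region beside Runx1 P2 and the strongest one of Runx3. Of the RUNX matches that recurred in both libraries, those downstream of Runx1 and upstream of Cbfb fall within 10 bp of these same footprints. The intronic Runx1 footprint also holds the core letters within 10 bp in both libraries.

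The promoters of proteins that work with RUNX factors were then counted. Of 18 cofactors, 17 had a promoter peak in both libraries, against 62.3% of all protein-coding genes, and Tle2 had none. The strongest were the Groucho-family corepressors, Tle4 with 17.3 in replicate 1 and 24.7 in replicate 2 and Tle1 with 10.5 and 22.3. Of 12 DNA-binding partners 8 were open in both. Jun, a subunit of AP-1, had 13.9 and 15.6, and Smad3, a transducer of TGF-β and activin signals, had 7.55 and 13.9. The factors of blood and endothelium among them were mixed. Ets1 had 7.50 and 8.53, Gata2 2.25 and 2.78, Lmo2 1.32 and 1.06 and Tal1 0.614 and 0.531. Fli1 had a peak of 0.474 in replicate 1 alone, and Erg, Spi1 and Gata1 had none within 500 bp of a start. This depends on the distance. Within 2000 bp of a start all 12 partners had a peak in both libraries, where 66.2% of all protein-coding genes did.

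Target genes of bone, of blood and of the ovulating follicle followed, again beside the 62.3% of all protein-coding genes with a promoter peak in both libraries. Of 13 bone genes 4 were open in both libraries, with Col1a1, a collagen of bone and of connective tissue at large, at 4.97 and 2.40 and Alpl, alkaline phosphatase, at 1.64 and 1.08. The osteoblast genes Sp7, Bglap, Spp1 and Ibsp had no promoter peak. Of 14 blood and lymphoid genes 2 were open in both. These were Zbtb7b, a regulator of CD4 T cells, at 11.0 and 17.1, where the noncoding Gm15417 starts as well, and Itga2b, the platelet integrin, at 9.97 and 13.4. Of 9 genes tied to RUNX1 or RUNX2 in ovulatory granulosa cells 7 were open in both, led by Rgcc at 7.89 and 7.36 and the metallothionein Mt1 at 6.08 and 8.88. Others were weak. Ptgs2, the prostaglandin synthase of ovulation, had 0.915 and 0.610, and Hapln1 had 0.689 and 0.586. Fabp6 and Avpr1a had no promoter peak in either library. The lists had been drawn up with earlier results of these data known, and their counts describe openness of promoters, not expression or binding.

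**Figure D4:**
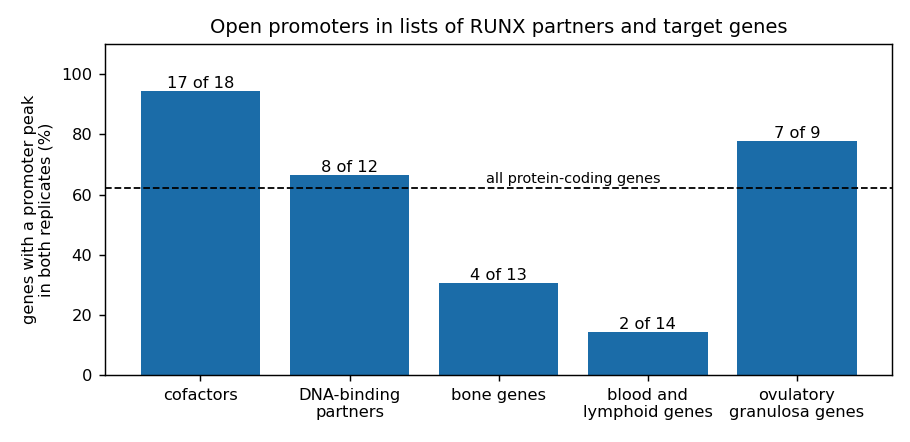
Percent of genes in each list with a promoter peak within 500 bp of an annotated start in both libraries, with counts above the bars and a dashed line at the share of all protein-coding genes, 62.3%. Cofactors (17 of 18) stand highest and blood and lymphoid genes (2 of 14) lowest.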

How the data were processed

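DNase-seq of 2 libraries of 1 group was read from the deposited lists, on build mm10 per the file names. The authors' peak lists give a signal per peak, whose values are whole multiples of 1 step per library. In the deposited peak lists no p-value or q-value is filled in. False discovery rates (a q-value per base) were deposited only below 0.05, and each deposited footprint has the same p-value label, 0.01. Not given in the sources used here are the aligner, the callers and the mapping of CAST alleles, and printed bases are those of the reference. Genes came from GENCODE M21, on autosomes and X.

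The longer peak list was used. Regions were merged peaks, shared with at least 1 bp of a peak of each library. Promoters of a Runx gene were the starts of coding transcripts grouped by start codons within 1 kb, and their peaks lay within 500 bp. Genes and regions named are the members, their promoters, the 4 strongest distal shared regions of each, neighbours' promoters, recurring RUNX matches and the 2 strongest genes per list. Others were named after their values were seen. Members and lists were chosen with earlier results of these data known. No test was made. Python 3.11.15, NumPy 2.4.6, pandas 2.3.3, pysam 0.24.0 and Matplotlib 3.10.9 were used, and merging and searching were tested on simulated data.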

Additional observations from a re-analysis of the deposited data

How the results depend on the processing

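No paired analysis was possible because there was a single group and no test. With the shorter peak lists the shared regions of Runx1 numbered 8 in place of 14 and the open bone genes 2 in place of 4, while Runx1 P1 and Runx3 P2 had no peak in either library. Flanks of 10 kb left 8 shared regions for Runx1 and 5 for Cbfb, and gene bodies alone 7 for Runx1, 2 for Runx3 and 2 for Cbfb. With a single library, which counts all its peaks, the Runx1 window had 21 to 24 regions and that of Runx2 18 to 28. Footprints in peaks of the shorter lists averaged 29 for Runx1, against 46.5 over all, and 7.5 for Runx3, against 14. The RUNX share of member footprints, 4.19% on average, was 2.13% with 0 bp added and 7.18% with 20 bp. The share of all footprints moved too, to 0.833% in replicate 1 and 0.643% in replicate 2 with 0 bp and to 4.89% and 4.32% with 20 bp. The other 77 comparisons of these results moved by less than the spread between libraries or, for counts, by at most 1.5 times. Promoters of 250 bp either side left Runx3 P2 without a peak. The unknown depth limits what a missing peak can mean.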
